A study of Homo sapiens with 8 samples.

Results

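Epithelial-mesenchymal transition (EMT) genes were followed through depletion of UHRF1 in 2 colorectal cancer lines. The set was chosen by name and not by expression level, though with earlier results of these data known. It held the mesenchymal markers VIM, FN1 and CDH2, the epithelial markers CDH1 and EPCAM, and the transcription factors ZEB1, ZEB2, SNAI1, SNAI2 and TWIST1. These are 10 of the 60649 gene identifiers in the tables, and each was matched by its gene name to a single identifier in all 8 libraries.

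In EMT, epithelial cells lose the adherens junctions that hold them together and acquire the motile, matrix-producing character of mesenchymal cells. The factors of the SNAIL, ZEB and TWIST families drive this change and repress CDH1, which encodes E-cadherin, by binding E-box motifs, while the intermediate filament protein vimentin and the matrix protein fibronectin accumulate. UHRF1 reads hemimethylated DNA behind the replication fork and recruits the methyltransferase DNMT1, so that CpG methylation is copied to the new strand.

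PolyA RNA was sequenced from the human colorectal cancer line HCT116 and UF1hypo, a single clone of it in which exon 4 of one UHRF1 allele had been excised. Each line received a lentiviral hairpin, either scrambled (shScr) or directed at UHRF1 (shUHRF1), in puromycin-selected pools, and each of the 4 groups had 2 libraries. The labels do not say whether the libraries of a group came from separate cultures, so p-values measure the spread between these libraries, which may be technical. The study names DNMT1 hypomorphic cells as well, which were not analysed here.

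UHRF1 itself was lower in both shUHRF1 libraries than in both shScr libraries of each line. Its level in TPM (transcript abundance scaled for gene length and library total) came to 87.5 and 98.4 with shScr and 31.7 and 32.7 with shUHRF1 in HCT116, and 47.3 and 50.6 with shScr and 34.1 and 21.1 with shUHRF1 in UF1hypo. On the log2(TPM + 1) scale limma gave −1.50 ± 0.222 (SE, adjusted p = 0.0564) in HCT116 and −0.84 ± 0.221 (adjusted p = 0.0406) in UF1hypo. Neither was called changed, which took an adjusted p below 0.05 and an absolute log2 fold change above 1. Depth ranged from 5.42 to 7.83 gigabases of aligned sequence per library. Replicates correlated at a Pearson's r of 0.991 to 0.992 across genes in 3 groups and 0.956 in UF1hypo shUHRF1. The replicate difference of UF1hypo shUHRF1 also followed the GC content of transcripts (Spearman's rho 0.814 across 13781 genes, which are not independent replicates). In UF1hypo shScr this rho was −0.508, and in HCT116 it was −0.0417 with shScr and −0.0680 with shUHRF1. Of the colon epithelium markers, KRT8, KRT18, KRT19 and EPCAM were abundant in all libraries, whereas CDX1, VIL1, CDH17 and LGALS4 stayed below 1 TPM.

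Promoters are shown for VIM and FN1, which were picked as the 2 genes of the set called higher on knockdown in UF1hypo. Their CpG are marked because UHRF1 takes part in copying CpG methylation, and a link of these sequences to the change was not tested. Each window runs from 250 bases before to 50 bases after the RefSeq start (GRCh38.p14), 5′ to 3′ on the gene's strand, and capitals mark CpG dinucleotides.
VIM, chr10:17227991-17228290, plus strand: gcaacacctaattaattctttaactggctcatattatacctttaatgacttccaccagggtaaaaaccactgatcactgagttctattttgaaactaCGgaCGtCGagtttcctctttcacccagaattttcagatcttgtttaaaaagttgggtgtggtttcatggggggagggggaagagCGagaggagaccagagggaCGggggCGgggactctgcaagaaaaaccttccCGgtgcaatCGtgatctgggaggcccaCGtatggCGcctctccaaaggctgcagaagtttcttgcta
FN1, chr2:215436019-215436318, minus strand: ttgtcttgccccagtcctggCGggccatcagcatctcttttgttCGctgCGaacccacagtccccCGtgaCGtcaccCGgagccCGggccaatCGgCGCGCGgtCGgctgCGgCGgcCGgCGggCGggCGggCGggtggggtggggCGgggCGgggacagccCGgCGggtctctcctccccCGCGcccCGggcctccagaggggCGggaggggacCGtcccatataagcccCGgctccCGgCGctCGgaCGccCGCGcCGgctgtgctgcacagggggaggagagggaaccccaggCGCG

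The FN1 window held 38 CpG and the VIM window held 10, against a median of 14 over 35116 RefSeq promoter windows of this length. Each of the 2 genes is covered by 1 window at 1 start, and CpG outside it were not counted. At least as many CpG as in FN1 were found in 9.91% of these windows and as many as in VIM in 56.4%. Neither window held the E-box CACCTG or its reverse complement CAGGTG, the site of SNAIL and ZEB factors, which 20.6% of all windows contain. The GC box GGGCGG or its reverse complement CCGCCC, which itself includes a CpG, was found 4 times in FN1 and 1 time in VIM, counted without overlap, and in 45.0% of all windows. Windows were also present for CDH2, ZEB1 and ZEB2, but not for CDH1, SNAI1, SNAI2, TWIST1 and EPCAM. Methylation of these promoters was not analysed here.

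VIM was low in both control groups and high after knockdown in both lines. VIM (ENSG00000026025.16; chromosome 10, 17228241 to 17237593, plus strand, GRCh38) had a TPM of 2.45 and 1.82 in HCT116 shScr and of 15.0 and 11.7 with shUHRF1. In UF1hypo it went from 1.48 and 0.700 to 44.6 and 27.6. From lowest to highest the groups were the UF1hypo controls, the HCT116 controls, HCT116 with shUHRF1 and UF1hypo with shUHRF1, with no overlap between neighbours. Group means were 1.09 ± 0.552, 2.14 ± 0.448, 13.3 ± 2.29 and 36.1 ± 12.0 TPM in this order (SD, n = 2). In bulk RNA, fewer cells with a transcript and less of it per cell cannot be told apart.

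On knockdown in UF1hypo, VIM rose by 4.14 ± 0.299 (SE) on the log2(TPM + 1) scale, with a limma adjusted p of 8.09e-05. A gene was called changed at an adjusted p below 0.05 and an absolute log2 fold change above 1, with p-values adjusted over all protein-coding genes tested. The log2 scale with 1 TPM added understates the change of low genes, and the ratio of mean TPM was 33.1. In HCT116 the same comparison gave 2.19 ± 0.298 with an adjusted p of 0.0516, just outside the call, and a ratio of means of 6.24. This value passed in 6 of 17 alternative analyses, among them the fit to the 4 HCT116 libraries alone, and its adjusted p ranged from 0.000104 to 0.555 over all of them.

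The change of VIM was larger in UF1hypo than in HCT116 by 1.95 ± 0.423, with a limma adjusted p of 0.0379. The call did not hold in 11 of 20 alternative analyses. The adjusted p lay between 0.0683 and 0.182 when any 1 of the 4 HCT116 libraries or the 2 UF1hypo shScr libraries was left out, and between 0.0527 and 0.0823 with a pseudocount of 0.1, without the TPM filter, with all annotated genes, with quantile normalization or with weighted libraries. Between the lines, VIM was 0.60 ± 0.297 lower in UF1hypo with shScr (adjusted p = 0.328) and 1.34 ± 0.299 higher in UF1hypo with shUHRF1 (adjusted p = 0.0115). The latter no longer passed without HCT116 shUHRF1 replicate 2 (adjusted p = 0.0954) or with weighted libraries (adjusted p = 0.0985). Among 19960 protein-coding genes VIM ranked 11430 by mean TPM with shScr and 7924 with shUHRF1 in HCT116, and 12274 and 4643 in UF1hypo.

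VIM overlaps its antisense RNA VIM-AS1 over 1745 bases on the opposite strand, and the sources used here do not say whether strand was counted. VIM-AS1 measured 0.190 and 0.452 TPM with shScr and 0.758 and 1.69 with shUHRF1 in HCT116, and 0 and 0.0680 with shScr and 0.320 and 0.686 with shUHRF1 in UF1hypo. Its level was below that of VIM in every library and higher with shUHRF1 than with shScr in both lines.

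**Figure D1:**
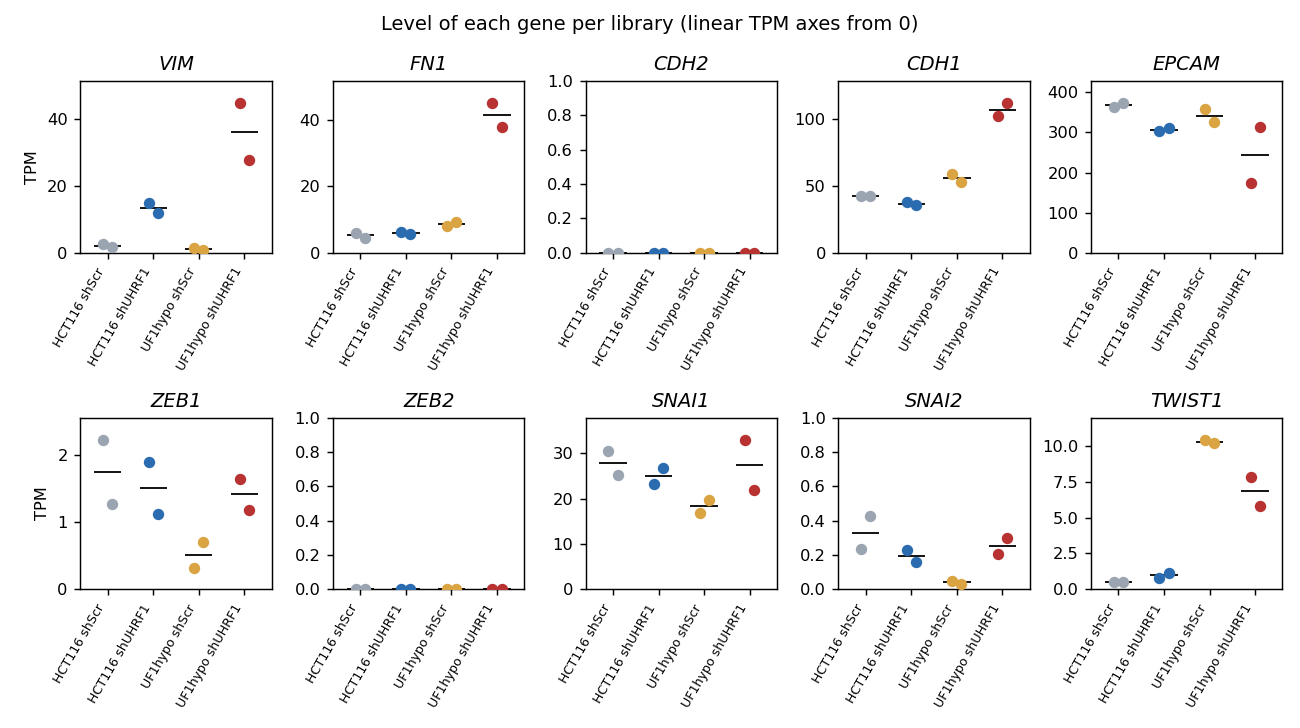
TPM of the 10 genes in each of the 8 libraries, on linear axes that start at 0; points are libraries and lines are group means. VIM sits at 11.7 and 15.0 in HCT116 shUHRF1 and at 27.6 and 44.6 in UF1hypo shUHRF1, above all shScr libraries, whereas FN1 is high in UF1hypo shUHRF1 alone and TWIST1 in both UF1hypo groups.

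FN1, which encodes fibronectin, was high in one group. FN1 (ENSG00000115414.21; chromosome 2, 215360440 to 215436073, minus strand) measured 5.90 and 4.49 TPM with shScr and 6.16 and 5.56 with shUHRF1 in HCT116, and 8.06 and 9.31 with shScr and 45.0 and 38.0 with shUHRF1 in UF1hypo. The HCT116 groups overlapped, both UF1hypo shScr libraries lay above them, and both UF1hypo shUHRF1 libraries lay above all others. Knockdown raised FN1 in UF1hypo by 2.13 ± 0.210 (limma adjusted p = 0.000422) and gave 0.15 ± 0.209 in HCT116 (95% confidence interval −0.32 to 0.63).

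The knockdown effect on FN1 differed between the lines by 1.98 ± 0.296 (limma adjusted p = 0.00863). This call was lost without HCT116 shScr replicate 1, without either HCT116 shUHRF1 library or without UF1hypo shScr replicate 1, with adjusted p-values of 0.0524 to 0.0663. UF1hypo exceeded HCT116 by 0.65 ± 0.209 with shScr (adjusted p = 0.133) and by 2.63 ± 0.210 with shUHRF1 (adjusted p = 7.12e-05), of which the latter passed.

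CDH2, which encodes N-cadherin, the cadherin that replaces E-cadherin in many mesenchymal cells, was listed at 0 in all 8 libraries. No comparison was made for it.

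CDH1 was higher, not lower, after knockdown in the line where VIM and FN1 rose. CDH1 (ENSG00000039068.20; chromosome 16, 68737292 to 68835537, plus strand) had a TPM of 42.3 and 42.7 in HCT116 shScr and 37.9 and 35.4 in HCT116 shUHRF1. In UF1hypo it went from 58.7 and 52.8 to 102 and 112. None of these groups overlapped, and the 2 highest libraries were those with the highest VIM. On knockdown in UF1hypo CDH1 gained 0.93 ± 0.148 (limma adjusted p = 0.00478), which was below the fold-change threshold, and it passed at 1.00 when UF1hypo shScr replicate 1 was left out.

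In HCT116 the knockdown value of CDH1 was −0.21 ± 0.153 (limma adjusted p = 0.997), and the effect in UF1hypo exceeded it by 1.14 ± 0.210 (adjusted p = 0.0195). Leaving out any 1 of the 4 HCT116 libraries or the 2 UF1hypo shScr libraries gave adjusted p-values of 0.0864 to 0.128 for CDH1, and quantile normalization brought the difference to 0.99, under the threshold. With shUHRF1 in both lines, CDH1 was 1.52 ± 0.148 higher in UF1hypo than in HCT116 (adjusted p = 0.000209), and with shScr 0.38 ± 0.153 higher (adjusted p = 0.228).

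EPCAM, which encodes an adhesion molecule of epithelial cells, was the most abundant gene of the set in every library. EPCAM (ENSG00000119888.11; chromosome 2, 47345158 to 47387601, plus strand) measured 363 and 372 TPM with shScr and 302 and 311 with shUHRF1 in HCT116, and 357 and 327 with shScr and 174 and 314 with shUHRF1 in UF1hypo. Replicate 1 of UF1hypo shUHRF1 stood apart from the other 7 libraries, which lay between 302 and 372. The value on knockdown was −0.26 ± 0.240 in HCT116 and −0.55 ± 0.242 in UF1hypo, with limma adjusted p-values of 1.00 and 0.188. These tests pooled the spread of all 8 libraries, including the wide UF1hypo shUHRF1 pair. In HCT116 the groups did not overlap, and the limma fit to its 4 libraries alone gave −0.26 ± 0.077 (adjusted p = 0.0951).

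The UF1hypo value of EPCAM depended on which library was kept. It was −0.12 without UF1hypo shUHRF1 replicate 1 and −0.97 without replicate 2 (limma adjusted p = 0.376 and 0.000991), neither past the fold-change threshold. The EPCAM transcript has a GC content of 44.3%, against 54.3% for VIM, 50.8% for FN1 and 48.2% for CDH1. These 2 libraries differed along GC content, and whether this accounts for the EPCAM values was not tested. Of the other genes of the set, VIM, FN1, SNAI1 (GC content 58.4%) and TWIST1 (57.2%) were higher in replicate 1 than in replicate 2. So was ZEB1 at a GC content of 38.9% (1.64 against 1.18 TPM). CDH1 and SNAI2 (41.2%) were lower in replicate 1, as EPCAM was. After adjustment for GC content and length the knockdown value of EPCAM in UF1hypo was −0.46 ± 0.127 (limma adjusted p = 0.0264), also below the fold-change threshold. Neither comparison of the lines passed for EPCAM, at −0.11 ± 0.240 with shScr and −0.39 ± 0.242 with shUHRF1.

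The ratio within a library does not depend on how that library was scaled. It was not adjusted for the GC-linked replicate difference of UF1hypo shUHRF1. VIM amounted to 5.81% and 4.26% of the TPM of CDH1 in the HCT116 controls and to 39.5% and 33.1% after knockdown. In UF1hypo it went from 2.52% and 1.33% to 43.5% and 24.7%. In this measure the knockdown groups of the 2 lines overlapped, although VIM itself did not. FN1 amounted to 14.0% and 10.5% of CDH1 in the HCT116 controls, 16.3% and 15.7% after knockdown, 13.7% and 17.6% in the UF1hypo controls and 43.9% and 34.1% after knockdown, and UF1hypo shUHRF1 lay above the 3 other groups.

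TWIST1, a basic helix-loop-helix factor, separated the lines rather than the hairpins. TWIST1 (ENSG00000122691.13; chromosome 7, 19020991 to 19117636, minus strand) measured 0.516 and 0.519 TPM with shScr and 0.825 and 1.16 with shUHRF1 in HCT116, and 10.4 and 10.2 with shScr and 7.82 and 5.83 with shUHRF1 in UF1hypo. All 4 UF1hypo libraries lay above all 4 HCT116 libraries. UF1hypo exceeded HCT116 by 2.89 ± 0.226 with shScr (limma adjusted p = 0.000208, ratio of means 19.9) and by 1.97 ± 0.215 with shUHRF1 (adjusted p = 0.000371, ratio of means 6.88). Since UF1hypo is 1 clone, the lower UHRF1 gene dose and other properties of that clone cannot be told apart.

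The knockdown values of TWIST1 were 0.39 ± 0.227 in HCT116 (limma adjusted p = 0.913) and −0.54 ± 0.216 in UF1hypo (adjusted p = 0.146), with groups that did not overlap in either line. Their difference was −0.93 ± 0.305 (adjusted p = 0.141). It passed at −1.11 without UF1hypo shUHRF1 replicate 1 (adjusted p = 0.0323) and after adjustment for GC content and length (adjusted p = 0.0142).

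SNAI1, which encodes the zinc finger repressor SNAIL, was expressed in all groups and was called in none of the comparisons. SNAI1 (ENSG00000124216.4; chromosome 20, 49982980 to 49988886, plus strand) measured 30.4 and 25.3 TPM with shScr and 23.2 and 26.7 with shUHRF1 in HCT116, and 16.8 and 19.8 with shScr and 32.9 and 22.0 with shUHRF1 in UF1hypo. UF1hypo shScr was lowest and the 3 other groups overlapped. Knockdown gave −0.15 ± 0.228 in HCT116 and 0.54 ± 0.229 in UF1hypo (limma adjusted p = 1.00 and 0.171), and UF1hypo against HCT116 gave −0.58 ± 0.228 with shScr and 0.11 ± 0.229 with shUHRF1, none past the call.

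ZEB1, a zinc finger and homeobox repressor of CDH1, stayed low in all libraries. ZEB1 (ENSG00000148516.23; chromosome 10, 31318495 to 31529814, plus strand) measured 2.21 and 1.27 TPM with shScr and 1.89 and 1.13 with shUHRF1 in HCT116, and 0.312 and 0.710 with shScr and 1.64 and 1.18 with shUHRF1 in UF1hypo. UF1hypo shScr was lowest again, and the 3 other groups overlapped. Knockdown gave −0.12 ± 0.290 in HCT116 and 0.68 ± 0.272 in UF1hypo (limma adjusted p = 1.00 and 0.145), and the lines differed by −0.85 ± 0.288 with shScr (adjusted p = 0.154) and −0.05 ± 0.270 with shUHRF1.

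ZEB1-AS1, which starts beside ZEB1 and overlaps it by 1953 bases on the opposite strand, exceeded ZEB1 in every library. It measured 5.08 and 4.14 TPM with shScr and 4.06 and 4.03 with shUHRF1 in HCT116, and 0.935 and 1.67 with shScr and 4.87 and 4.52 with shUHRF1 in UF1hypo, again lowest in UF1hypo shScr. The host RNA of miR-200c, a microRNA that represses ZEB1 and ZEB2, is MIR200CHG, which had a TPM of 5.70 and 3.04, 5.80 and 5.18, 6.26 and 5.57, and 8.03 and 10.5 in the 4 groups in the same order. The mature microRNA is not measured in polyA RNA.

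SNAI2, which encodes the SNAIL relative SLUG, was near 0 throughout. SNAI2 (ENSG00000019549.13; chromosome 8, 48917598 to 48921740, minus strand) measured 0.237 and 0.425 TPM with shScr and 0.227 and 0.160 with shUHRF1 in HCT116, and 0.0478 and 0.0335 with shScr and 0.207 and 0.302 with shUHRF1 in UF1hypo. It never reached the 1 TPM needed for a test. ZEB2, the close relative of ZEB1, and its antisense RNA ZEB2-AS1 were listed at 0 in all 8 libraries.

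Across the set, 7 of the 10 genes were tested in each comparison, and CDH2, ZEB2 and SNAI2 were not. On knockdown in HCT116 none of the 7 was called by limma, where 0.0708% of all tested protein-coding genes were, and 1 of the 7, VIM, had an unadjusted p below 0.05. UHRF1, the target of the hairpin, was not called in this comparison either, so a missing call there does not show absence of change. On knockdown in UF1hypo 2 were called higher, VIM and FN1, and 0 lower, against 7.39% of all tested genes called higher and 1.14% lower. With CDH1, 3 of the 7 had an adjusted p below 0.05 at any fold change, against 13.3% of all tested genes.

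The difference of knockdown effects was called for 3 genes, VIM, FN1 and CDH1, all larger in UF1hypo, against 4.54% of all tested genes called higher and 0.559% lower. Between the lines with shScr, 1 gene was called higher in UF1hypo, TWIST1, and 0 lower, against 2.59% and 0.949%. In this comparison TWIST1 passed the 1 TPM needed for a test only through UF1hypo, so its call cannot be read against these shares. Between the lines with shUHRF1, 4 genes were called higher, VIM, FN1, CDH1 and TWIST1, and 0 lower, against 12.2% and 3.92%. These comparisons share groups of libraries and are not independent of each other. The median log2 fold change of the 7 genes was −0.12 on knockdown in HCT116 and 0.68 in UF1hypo, beside medians over all tested genes of −0.03 and 0.04.

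**Figure D2:**
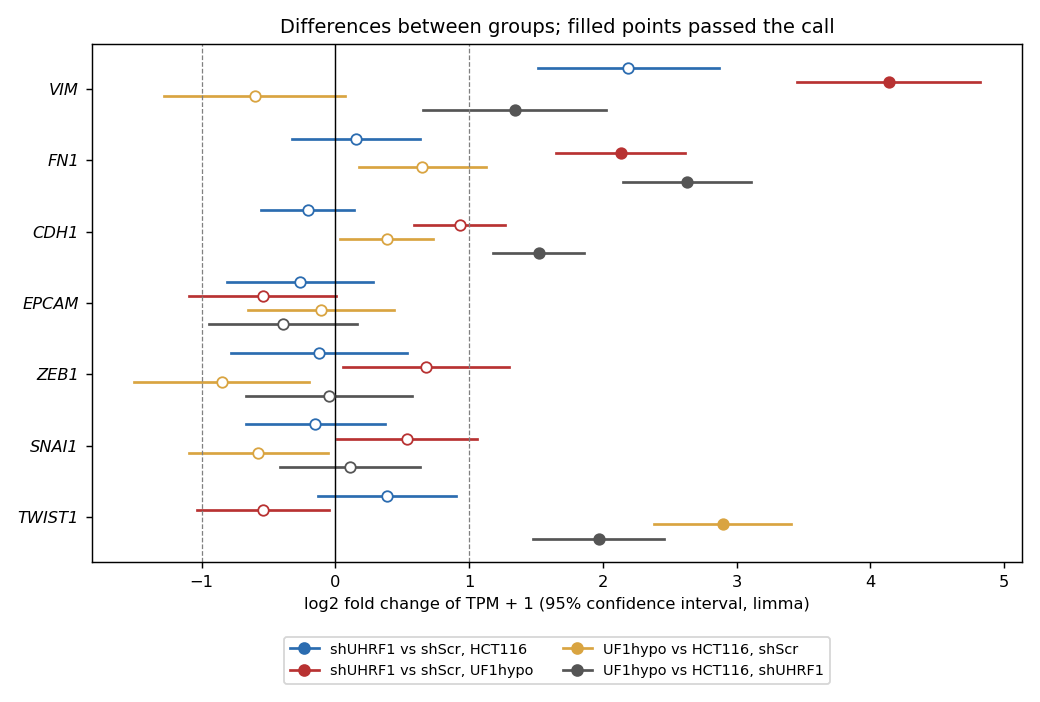
Log2 fold change of TPM + 1 for the 7 tested genes in 4 comparisons; points are limma estimates, bars are 95% confidence intervals, filled points passed the call and dashed lines mark an absolute log2 fold change of 1. VIM lies at 2.19 in HCT116 and 4.14 in UF1hypo on knockdown, whereas TWIST1 lies furthest to the right between the lines with shScr, at 2.89.

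Genes that act in the same programme moved in part. Of 20 mesenchymal matrix and cytoskeleton genes, 13 were tested on knockdown in UF1hypo, of which 3 rose, 2 fell and 8 were not called, with a median log2 fold change of 0.25 beside 0.04 over all tested genes. Over all tested genes 7.39% were called higher in this comparison and 1.14% lower. The 3 genes that rose passed the 1 TPM needed for a test only through the shUHRF1 libraries, so their share cannot be read against these. SPARC, a matrix glycoprotein, went from 0.0253 and 0.217 to 41.0 and 33.3 TPM in UF1hypo, a rise of 5.09 ± 0.234 (limma adjusted p = 7.00e-06). In HCT116 SPARC was listed at 0 in both shScr libraries and had a TPM of 2.23 and 1.39 with shUHRF1, which was not called (adjusted p = 0.0979).

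COL5A1, a chain of type V collagen, went from 0.0904 and 0 to 5.41 and 4.37 TPM in UF1hypo, a rise of 2.49 ± 0.208. The other gene that rose was TGFBI, a matrix protein induced by TGF-beta, which went from 0.269 and 0 to 1.94 and 1.00 TPM, a rise of 1.11 ± 0.240. CD44 was named after its values were seen, because it fell outside the rule for named genes.

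The genes that fell in UF1hypo were S100A4 and CD44, both often counted as mesenchymal markers. S100A4, a calcium-binding protein, went from 1519 and 1491 to 571 and 761 TPM, a log2 fold change of −1.19 ± 0.169, and CD44, the hyaluronan receptor, had −1.01 ± 0.186. S100A4 also separated the lines, since it had a TPM of only 150 and 136 in HCT116 shScr, 3.39 ± 0.170 below UF1hypo shScr on the log2 scale (limma adjusted p = 2.43e-05). Without UF1hypo shUHRF1 replicate 1 neither passed on knockdown, so that 2 genes of this list rose (COL5A1 and SPARC) and 0 fell. After adjustment for GC content and length the same 2 rose and 1, S100A4, fell.

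Of 6 intermediate filament partners of vimentin, 5 were tested on knockdown in UF1hypo, with a median of 0.56, and 2 rose, where 7.39% of all tested genes did. NES, which encodes nestin, went from a mean of 10.6 ± 0.593 TPM (SD, n = 2) to 25.5 and 25.7 TPM (1.19 ± 0.189) and DES, which encodes desmin, from 5.76 and 6.08 to 16.0 and 13.3 TPM (1.18 ± 0.236). After adjustment for GC content and length 0 of this list passed. Of 10 TGF-beta pathway genes, all tested, SMAD7, the inhibitor that the pathway induces, rose from 18.9 and 17.3 to 46.0 and 46.9 TPM (1.31 ± 0.203), and 9 were not called, a share near the 7.39% of all tested genes called higher. Without UF1hypo shUHRF1 replicate 2 the TGF-beta list gave 3 higher (SMAD3, SMAD7 and TGFB3) and 1 lower (TGFBR1).

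Of 15 epithelial junction genes, 14 were tested on knockdown in UF1hypo and 0 were called by limma, where 7.39% of all tested genes were called higher and 1.14% lower, with log2 fold changes from −0.49 to 0.59 and a median of 0.27. Of 8 epithelial-state regulators, all tested, ELF3, an ETS factor of epithelia, fell from 143 and 138 to 64.2 and 48.1 TPM (−1.32 ± 0.183), and 7 were not called. Of 9 other EMT transcription factors, 4 were tested and 0 called. On knockdown in HCT116 0 genes of these 6 lists were called, where 0.0708% of all tested genes were, and their medians lay between −0.24 and 0.36.

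Between the lines with shScr, 1 epithelial junction gene was called higher in UF1hypo, CLDN4 (1.22 ± 0.196), with 1 regulator, OVOL1 (1.01 ± 0.183), 2 mesenchymal genes, S100A4 and COL6A1, and 1 TGF-beta pathway gene, SMAD7 (1.55 ± 0.203), beside the 2.59% over all tested genes. With shUHRF1 in both lines, 6 of 13 mesenchymal genes, 3 of 5 intermediate filament partners, 2 of 14 junction genes, JUP and LLGL2, 1 of 8 regulators, OVOL1 (1.70 ± 0.181), and 1 of 10 TGF-beta pathway genes, SMAD7 (2.06 ± 0.203), were called higher in UF1hypo, beside the 12.2% over all tested genes. The 1 gene of the 6 lists that was called lower there was TGFBR1 (−1.03 ± 0.287), beside 3.92% over all tested genes. Of the 6 mesenchymal genes called higher, COL5A1 and TGFBI passed the 1 TPM needed for a test only through UF1hypo.

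VIM and FN1 are abundant in fibroblasts, and vimentin also in endothelial cells and leukocytes, so markers of these cells were read beside them. The summed TPM of 10 fibroblast markers was 21.3 to 24.0 with shScr and 22.7 to 26.7 with shUHRF1 in HCT116, and 23.1 to 29.0 with shScr and 45.5 to 72.9 with shUHRF1 in UF1hypo. Most of it was COL1A1, while LUM and POSTN were listed at 0 in all libraries and DCN, PDGFRA and COL1A2 stayed below 0.1 TPM. On knockdown in UF1hypo THY1 (2.56 ± 0.194) and FAP (1.28 ± 0.254) were called higher, 2 of the 3 fibroblast markers tested, where 7.39% of all tested genes were. Both passed the 1 TPM needed for a test only through the shUHRF1 libraries, where they were high. Their share therefore cannot be read against that of all genes.

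The summed TPM of 5 endothelial markers reached at most 0.733 in all libraries and none was tested. That of 7 leukocyte markers was 14.1 to 15.9 with shScr and 8.32 to 8.50 with shUHRF1 in HCT116, and 41.1 to 43.7 with shScr and 79.4 to 110 with shUHRF1 in UF1hypo. CD68, a lysosomal protein, supplied most of this sum, whereas PTPRC, which defines leukocytes, reached at most 0.0728 TPM. On knockdown in UF1hypo CD68 was called higher (1.11 ± 0.201), 1 of the 2 leukocyte markers tested, where 7.39% of all tested genes were. The CD68 call did not hold in all alternatives. Of 10 colon epithelium markers, 6 were tested on knockdown in UF1hypo and 1 was called higher, beside the 7.39% of all tested genes. It was KRT20, a keratin of differentiated colon epithelium, which went from 9.28 and 9.06 to 75.0 and 111 TPM (3.18 ± 0.228).

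The genes with the pattern nearest to that of VIM were found by the root mean square difference of centred log2(TPM + 1) over the 8 libraries, among 10023 protein-coding genes above 10 TPM in at least 1 library. They were PRF1 (0.755), ANGPT2 (0.778), FCGRT (0.783), RP11-1035H13.3 (0.790) and COL6A3 (0.835), where the value in parentheses is that difference. PRF1 encodes perforin, ANGPT2 an angiopoietin, FCGRT the neonatal Fc receptor and COL6A3 a chain of type VI collagen. FN1 ranked 133 in this order, CDH1 698, SNAI1 1764, EPCAM 9003 and TWIST1 9710.

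The nearest gene, PRF1, measured 4.04 and 4.20 TPM with shScr and 17.6 and 18.0 with shUHRF1 in HCT116, and 2.40 and 3.01 with shScr and 212 and 141 with shUHRF1 in UF1hypo. Its knockdown effect was 1.88 ± 0.228 in HCT116 (limma adjusted p = 0.0380) and 5.56 ± 0.229 in UF1hypo (adjusted p = 4.78e-06), both called. ANGPT2, FCGRT, RP11-1035H13.3 and COL6A3 had 0.86, 0.90, 2.22 and 1.36 on knockdown in HCT116, none of them called. Having been selected for their likeness to VIM over these libraries, these values are a description of them.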

How the data were processed

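RNA of 8 libraries was analysed from gene tables. The authors used Fastp for trimming, HISAT2 2.0.4 for alignment to GRCh38 and StringTie 2.1.4 for quantifying genes. The deposited TPM values were scaled by the authors for length and to an equal library sum. The deposited FPKM values were scaled for gene length and aligned bases, and the deposited coverage is the unscaled mean per-base signal. No read counts were used, so the counting error of a value could not be given, and the study's DESeq2 test was not run. Depth was taken as the most frequent ratio of coverage to FPKM, which 11.0% to 13.3% of genes shared.

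Identifiers were matched to GENCODE 44 (60507 of 60649). Log2(TPM + 1) of the 8 libraries was fitted once in limma 3.58.1 (R 4.3.3) with a variance trend. All groups thus shared 1 estimate of the spread per gene. The replicate difference had an SD over genes of 0.637 in UF1hypo shUHRF1 and 0.282 to 0.305 in the other groups. Fitted to its own 4 libraries, the knockdown called 89 genes in HCT116, against 9 in the shared fit. In UF1hypo it called 563, against 1162. A comparison tested protein-coding genes above 1 TPM in at least 1 of its libraries, with Benjamini-Hochberg adjustment over them. An exact permutation test of 2 against 2 cannot give a two-sided p below 0.33. On simulated data with 200 genes of 13781 changed by a log2 of 2, 195 were recovered for HCT116 with 0 false calls and 193 for UF1hypo with 23 false calls. The changed genes were drawn from those with a mean log2(TPM + 1) above 1. With so many changed genes the adjustment is milder than on the real knockdown in HCT116, which called 9. The recovery is therefore not the power of that comparison.

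The genes and lists were chosen with earlier results of these data known. A gene of the mesenchymal list is not reported here and was left out of the list counts. From each list, up to 4 called genes with the largest change and non-overlapping groups were named. Alternatives were another pseudocount, filter, scaling, unit, variance model or gene set, library weights, a GC content and length correction over 10 bins of each, a replicate block, the libraries of a comparison alone, and leaving out each library.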

Additional observations from a re-analysis of the deposited data

Results flagged for a closer look

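The knockdown effect differed between the lines by limma's test of the difference for 12 genes of the set and of the related and marker lists. Genes selected for their likeness to VIM are not counted here. It was larger in UF1hypo than in HCT116 on the log2(TPM + 1) scale by 1.95 for VIM, 1.98 for FN1, 1.14 for CDH1, 3.61 for SPARC, 2.29 for COL5A1, 1.08 for ITGA5, 2.98 for KRT20, 2.5 for THY1 and 1.95 for CD68. It was smaller by the values of −1.16 for ELF3, −1.2 for FOXC1 and −1.65 for S100A4. Over all tested genes, 4.54% were called larger in UF1hypo by this test and 0.559% smaller. The call did not hold in 11, 4 and 8 of 20 alternatives for VIM, FN1 and CDH1. Alternatives of this difference are not given here for the genes of the lists. COL5A1 and THY1 were above 1 TPM in UF1hypo shUHRF1 alone. FOXC1, a forkhead factor, measured 48.7 and 44.1 TPM with shScr and 68.4 and 66.3 with shUHRF1 in HCT116, and 60.2 and 54.2 with shScr and 36.4 and 34.5 with shUHRF1 in UF1hypo, so that its groups lay in opposite order in the 2 lines. SNAI2 was lower in both HCT116 shUHRF1 libraries and higher in both UF1hypo shUHRF1 libraries than in their controls, with a difference of 0.42 that was not tested, at levels below 0.5 TPM.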

How the results depend on the processing

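On knockdown in UF1hypo VIM and FN1 were called in all 18 alternatives. Between the lines, TWIST1 with shScr and CDH1, FN1 and TWIST1 with shUHRF1 were called in all 17. The count of called genes on knockdown in HCT116 went from 0 to 1, VIM, with a pseudocount of 0.1, the 4 libraries of the contrast, FPKM, library weights, the GC content and length correction, and that correction with the replicate block. It was 0 each time a library was left out. For the difference of knockdown effects the count of 3 became 1 (FN1) with quantile normalization, 2 with a pseudocount of 0.1, no TPM filter, all annotated genes, library weights or the replicate block, 4 with the GC content and length correction, with or without the block, and 0 to 4 when a library was left out.

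Replicate numbers did not pair the libraries, since deviations of same-numbered libraries correlated at −0.402 to 0.0547 between groups. The replicate block called 1110 genes and its crossed form, chosen after seeing the data, 1207 on knockdown in UF1hypo, with VIM and FN1 in both, and 1 gene in HCT116. Under the block CDH1 no longer passed in the difference of effects (adjusted p = 0.0510), and the block changed no other call of the set.

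Signs turned for genes that were not called. With 1 library left out, the value on knockdown in HCT116 ranged from −0.37 to 0.13 for ZEB1 (above 0 without HCT116 shScr replicate 1 and, at 0.10, without HCT116 shUHRF1 replicate 2) and from −0.0100 to 0.32 for FN1 (lowest without HCT116 shScr replicate 2). The difference of effects ranged from −0.71 to 0.14 for EPCAM. Between the lines with shUHRF1 the range was −0.27 to 0.18 for ZEB1 (highest without HCT116 shUHRF1 replicate 1, and 0.09 without UF1hypo shUHRF1 replicate 2), −0.17 to 0.39 for SNAI1 and −0.82 to 0.036 for EPCAM, and these EPCAM and SNAI1 signs turned without UF1hypo shUHRF1 replicate 1. With the GC content and length correction, with or without the block, EPCAM was 0.0048 between the lines with shScr, and ZEB1 was 0.28 and SNAI1 −0.26 with shUHRF1. The causes were not tested.

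Over all genes, 9 were called on knockdown in HCT116 (0 to 101 in the alternatives) and 1162 in UF1hypo (539 to 2255). Quantile normalization moved the median of all genes by −0.10 on knockdown in UF1hypo, −0.14 in the difference and −0.14 between the lines with shUHRF1. The 4 libraries of a contrast could not be used for the difference, which needs all 8. CDH1 on knockdown in UF1hypo had an adjusted p of 0.0712 with 4 libraries. Levels below 1 TPM were not tested.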
